A study of Mus musculus with 12 samples.

Results

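Immediate early genes are switched on within a short time of a growth signal, a stress or the handling of a tissue, without the need for new protein. The 10 immediate early genes Fos, Fosb, Jun, Junb, Egr1, Atf3, Ier2, Ier3, Dusp1 and Zfp36 were described here in whole mouse kidneys at postnatal day 3, kidney by kidney. They were chosen by name, and all 10 had a row among the 24062 gene rows of each of the 12 kidneys. The study asked how LIN28B and the let-7 microRNAs, which LIN28B keeps from maturing, set the time at which nephron formation ends. RNA was taken from 4 groups of 3 kidneys, each group drawn from 2 litters, with kidneys 1 and 2 of a group from litter 1 and kidney 3 from litter 2.

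The first experiment was done on a C57BL/6 background. LIN28B Wt1 kidneys carried a human LIN28B transgene that doxycycline induces and that Wt1-Cre restricts to cells of the Wt1 lineage, and the LIN28B controls were wild-type kidneys of the same litters by label. The second experiment was done on a mixed CD1 and C57BL/6 background. The let-7 KO kidneys carried a deletion of the let-7 cluster that holds Mirlet7a-1, Mirlet7f-1 and Mirlet7d, and the let-7 WT kidneys were wild-type kidneys by label. Strain, experiment and the litters themselves therefore go together, and a difference between the 2 control groups cannot be told apart from any of them.

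Mitogens and stress act on these genes through MAP kinases, which activate ternary complex factors bound with serum response factor at CArG boxes, and through kinases that activate CREB and its relatives at cyclic AMP response elements. Fos, Fosb, Jun and Junb encode subunits of AP-1, a dimeric transcription factor. Egr1 and Atf3 encode other transcription factors, Egr1 a zinc finger activator and Atf3 a CREB-family factor that often represses and is also induced through the integrated stress response. Ier2 and Ier3 encode small proteins that respond to growth factors and stress. Dusp1 and Zfp36 close the loop, since Dusp1 encodes a phosphatase that switches MAP kinases off and Zfp36 encodes tristetraprolin, which binds AU-rich messages and hastens their decay.

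The gene models of the members stand in GENCODE M21 on GRCm38 at chr12:85473890-85477273 (+) for Fos, chr4:95049034-95052222 (-) for Jun, chr8:84974484-84978718 (-) for Junb, chr1:191170296-191218039 (-) for Atf3 and chr8:84661331-84662852 (-) for Ier2. Ier3 lies at chr17:35821684-35822923 (+), Dusp1 at chr17:26505590-26562128 (-), Zfp36 at chr7:28376784-28380253 (-) and Fosb at chr7:19302696-19310051 (-). The 250 bases before the RefSeq start (GRCm38.p6) were searched for 8 of the 10 members, not for Egr1 and Ier2. They are shown for Fos, which varied most between kidneys, for Junb, Dusp1 and Zfp36, which were low in all LIN28B Wt1 kidneys, and for Ier3, which differed between the control groups. Capitals mark matches on either strand to the cyclic AMP response element TGACGTCA, to its half-site TGACG, to the Egr site GCGNGGGCG and to the CArG box, and on the gene's own strand to the TATA box TATAAA. The AP-1 site TGANTCA was searched as well.
Fos, chr12:85473640-85473889 (+): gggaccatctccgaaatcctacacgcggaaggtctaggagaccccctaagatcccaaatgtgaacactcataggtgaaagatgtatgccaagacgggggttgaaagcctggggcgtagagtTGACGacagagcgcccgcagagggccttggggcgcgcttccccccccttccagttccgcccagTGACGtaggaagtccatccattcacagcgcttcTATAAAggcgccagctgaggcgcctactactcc
Junb, chr8:84978749-84978998 (-): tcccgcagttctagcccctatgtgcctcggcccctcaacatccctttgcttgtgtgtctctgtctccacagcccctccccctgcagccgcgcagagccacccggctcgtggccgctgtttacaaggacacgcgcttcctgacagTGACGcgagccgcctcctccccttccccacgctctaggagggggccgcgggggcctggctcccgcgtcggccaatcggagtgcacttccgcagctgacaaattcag
Dusp1, chr17:26508473-26508722 (-): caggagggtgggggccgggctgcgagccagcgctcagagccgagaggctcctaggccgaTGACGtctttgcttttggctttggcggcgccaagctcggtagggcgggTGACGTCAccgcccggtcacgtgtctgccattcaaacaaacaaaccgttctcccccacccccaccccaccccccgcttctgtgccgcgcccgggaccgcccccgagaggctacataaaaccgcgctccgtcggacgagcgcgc
Zfp36, chr7:28379229-28379478 (-): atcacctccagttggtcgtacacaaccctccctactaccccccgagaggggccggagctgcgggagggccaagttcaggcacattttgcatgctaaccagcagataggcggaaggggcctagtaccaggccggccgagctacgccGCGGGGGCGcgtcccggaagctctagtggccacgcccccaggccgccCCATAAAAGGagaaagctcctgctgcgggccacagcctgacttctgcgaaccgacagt
Ier3, chr17:35821463-35821712 (+): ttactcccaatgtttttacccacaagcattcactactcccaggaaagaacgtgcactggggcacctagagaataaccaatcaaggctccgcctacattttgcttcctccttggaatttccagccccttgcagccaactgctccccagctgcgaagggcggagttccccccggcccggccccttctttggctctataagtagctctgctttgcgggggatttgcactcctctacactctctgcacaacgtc

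The half-site was the most frequent of these letters and was held by 5 of the 8 members, Fos, Fosb, Junb, Atf3 and Dusp1, and by 17.8% of all 32851 promoter windows of this length. The full element stood in Dusp1 alone among the members, where it also accounts for 2 of the 3 half-site matches, and in 1.55% of all windows. The CArG box was found only in Zfp36 among the 8 members, against 1.47% of all windows, and bases outside the windows were not searched. The Egr site stood in Zfp36 and Fosb (4.70% of all windows) and the TATA box in Fos (7.59%). No member window held TGANTCA, which 6.75% of all windows did, and the Ier3 window held none of the motifs searched. These matches describe letters in the windows and were not tied to any measurement of binding.

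Between 39926235 and 61872736 reads were counted on genes per kidney, so that 3 counts stood for 0.0490 to 0.0836 CPM (counts scaled to a common library total, with TMM over all 12 kidneys). Lin28b, whose row can also take reads from the human transgene, was at 1.17 to 4.19 CPM in LIN28B Wt1 kidneys and at 0 to 0.628 CPM in their controls. No let-7 KO kidney had a count on Mirlet7a-1, Mirlet7d or Mirlet7f-1, whose rows had 8, 54 and 2 counts over the 3 let-7 WT kidneys. Kidney markers were detected in all groups, and the 5 cap mesenchyme markers summed to 307 to 358 CPM in LIN28B Wt1 kidneys against 59.1 to 76.1 CPM in their controls. The let-7 KO kidney 3 had the fewest counts of all 12 and the largest share of them on its 100 highest genes (17.8%, against 13.2% to 16.3% in the others). In RNA from whole kidneys, fewer cells of a type and less RNA per cell cannot be told apart.

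In LIN28B Wt1 kidneys, Zfp36, Dusp1, Egr1 and Junb were below every control kidney, and Ier2 was above every control kidney. None of these differences passed the adjusted threshold. The test was edgeR's quasi-likelihood test of 3 against 3 kidneys, adjusted by the method of Benjamini and Hochberg over all 15793 genes tested, of which 1.23% had an adjusted p below 0.05. Of the 10 members 9 were tested, and 0 of the 9 were called. At the study's own unadjusted threshold of 0.01, which 7.33% of all genes passed, 1 of the 9 members did.

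Zfp36 was at 29.8, 27.03 and 22.0 CPM in the 3 LIN28B controls and at 15.8, 11.8 and 17.4 CPM in the 3 LIN28B Wt1 kidneys. The groups did not overlap, and the LIN28B Wt1 kidneys were the lower ones in both litters. The log2 fold change was -0.81 (SE 0.23), with an unadjusted p of 0.00652 and an adjusted p of 0.117 in edgeR's quasi-likelihood test. DESeq2, which called many more of all genes than edgeR's test in this comparison, put Zfp36 past the threshold. It gave a log2 fold change of -0.79 and an adjusted p of 0.0305.

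Dusp1, the other gene of the negative feedback, was at 47.0, 48.4 and 40.9 CPM in controls and at 16.4, 26.8 and 35.6 CPM in LIN28B Wt1 kidneys. All mutant kidneys were lower, although kidney 3 of each group, from litter 2, came close to the other. The log2 fold change was -0.79 (SE 0.27, adjusted p = 0.163). Egr1 was at 48.9, 40.7 and 57.5 CPM in controls and at 25.9, 19.1 and 38.4 CPM in LIN28B Wt1 kidneys. The groups did not overlap, and the log2 fold change was -0.81 (SE 0.27, adjusted p = 0.149).

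Of the AP-1 subunits, Junb was at 24.9, 27.5 and 27.95 CPM in controls and at 9.66, 19.4 and 21.0 CPM in LIN28B Wt1 kidneys. The mutant kidneys were all lower, kidney 1 most of all, with a log2 fold change of -0.68 (SE 0.29, adjusted p = 0.251). Junb shares 173 of its 2301 exonic bases with Prdx2 on the opposite strand, and the library kit did not keep the strand, so reads there cannot be assigned to one of them. Prdx2 itself had a log2 fold change of 0.39 (SE 0.18, adjusted p = 0.311) in this comparison. Overlaps of this kind also affect Jun (232 bases, with Junos), Zfp36 (125 bases, with Gm44710) and Dusp1 (11 bases, with Ergic1). Jun ran the other way by little. It was at 67.7, 70.1 and 70.8 CPM in controls and at 81.3, 78.4 and 70.9 CPM in LIN28B Wt1 kidneys, so that the groups only just missed each other (log2 fold change 0.15, SE 0.14, adjusted p = 0.644).

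Ier2 was at 75.5, 87.7 and 91.6 CPM in controls and at 132, 122 and 94.6 CPM in LIN28B Wt1 kidneys. Every LIN28B Wt1 kidney was higher, again with kidney 3 nearest to the controls, and the log2 fold change was 0.45 (SE 0.16, adjusted p = 0.182). Fos, Atf3 and Ier3 overlapped between the groups, Ier3 with 20.9, 23.3 and 17.1 CPM in controls and 21.6, 24.7 and 23.1 CPM in LIN28B Wt1 kidneys (log2 fold change 0.18, SE 0.20, adjusted p = 0.710). In all, 6 of the 9 members tested did not overlap, 4 of them lower and 2 higher, where 23.8% of all genes tested did not overlap. The median log2 fold change of the 9 members was -0.38, against -0.02 over all genes.

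Kidney 3 of the LIN28B Wt1 group decided whether members were called. Without it 4 members passed the threshold, Egr1 at a log2 fold change of -1.13 (adjusted p = 0.0120), Dusp1 at -1.08 (adjusted p = 0.0192), Zfp36 at -0.94 (adjusted p = 0.0367) and Ier2 at 0.57 (adjusted p = 0.0216). In that same fit the calls over all genes went from 194 to 2074, which was 12.8% of the genes tested. Leaving out any other kidney of this experiment called 0 members.

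**Figure D1:**
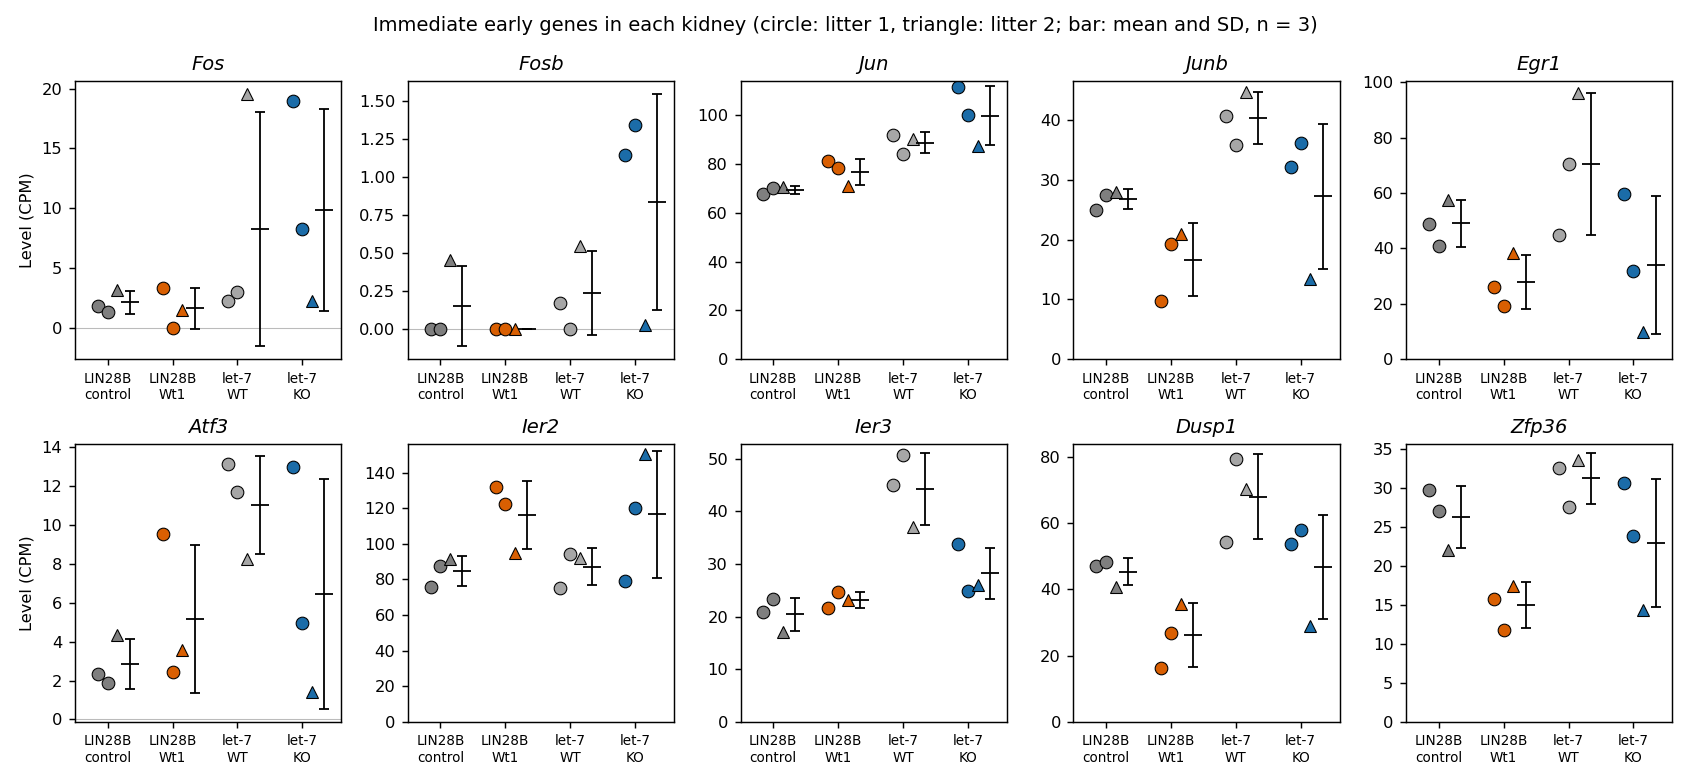
Level of each member (y axis, CPM) in each of the 12 kidneys, by group (x axis), with circles for litter 1 and triangles for litter 2 and the mean ± SD of 3 kidneys beside them; each panel has its own axis. Zfp36, Dusp1, Egr1 and Junb lie lower in all 3 LIN28B Wt1 kidneys than in any of their controls, Ier3 is highest in the 3 let-7 WT kidneys (37.1 to 50.8 CPM), and Fos reaches 19.6 and 18.95 CPM in single let-7 WT and let-7 KO kidneys.

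In let-7 KO kidneys Ier3 was below every let-7 WT kidney, and no member passed the adjusted threshold. All 10 members were tested, and 0 were called where 0.0194% of the 15500 genes tested were. At an unadjusted p below 0.01 the count of members was also 0, against 2.73% of all genes. The groups failed to overlap for 1 of the 10 members, against 16.7% of all genes, a share of members no higher than that of genes in general.

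Ier3 was at 45.0, 50.8 and 37.1 CPM in let-7 WT kidneys and at 33.8, 24.9 and 25.9 CPM in let-7 KO kidneys. The let-7 KO kidneys were lower within both litters. The log2 fold change was -0.66 (SE 0.24), with an unadjusted p of 0.0175 and an adjusted p of 0.379. Among the other transcription factors, Egr1 had the lowest fold change, -1.06, with an SE of 0.52 (adjusted p = 0.489). It was at 44.7, 70.4 and 96.0 CPM in let-7 WT and at 59.6, 31.96 and 9.86 CPM in let-7 KO kidneys, so that let-7 KO kidney 1 sat above a wild-type kidney while kidney 3 was far below all others.

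The feedback genes and Junb followed the same layout, with let-7 KO kidney 3 lowest and the groups overlapping. Dusp1 was at 54.3, 79.5 and 70.4 CPM in let-7 WT and at 53.7, 58.0 and 28.9 CPM in let-7 KO kidneys (log2 fold change -0.55, SE 0.28, adjusted p = 0.503). Zfp36 was at 32.6, 27.5 and 33.6 CPM against 30.7, 23.9 and 14.3 CPM (log2 fold change -0.46, SE 0.30, adjusted p = 0.608). Junb was at 40.7, 35.9 and 44.7 CPM against 32.2, 36.3 and 13.5 CPM (log2 fold change -0.58, SE 0.34, adjusted p = 0.565). In each of these the first 2 let-7 KO kidneys reached into or close to the wild-type range.

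Ier2 went against them. It was at 75.1, 94.2 and 92.1 CPM in let-7 WT and at 79.2, 120 and 150 CPM in let-7 KO kidneys, the highest of which was kidney 3 (log2 fold change 0.40, SE 0.23, adjusted p = 0.563). Atf3 was at 13.1, 11.7 and 8.25 CPM in let-7 WT and at 12.97, 4.96 and 1.42 CPM in let-7 KO kidneys (log2 fold change -0.77, SE 0.64, adjusted p = 0.700). Its let-7 KO kidneys spread over the widest range of any group. Jun differed little, with 92.0, 84.1 and 90.3 CPM against 112, 100.3 and 87.4 CPM (log2 fold change 0.15, SE 0.18, adjusted p = 0.795).

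Fos and Fosb, subunits of AP-1 that are made in brief bursts, differed widely between kidneys of the same group. Fos was at 2.25, 3.01 and 19.6 CPM in let-7 WT and at 18.95, 8.28 and 2.31 CPM in let-7 KO kidneys. The high kidney was from litter 2 in one group and from litter 1 in the other, and the log2 fold change of 0.25 (SE 0.87, adjusted p = 0.943) was smaller than its error. Fosb was at 0.170, 0 and 0.543 CPM in let-7 WT and at 1.14, 1.34 and 0.0279 CPM in let-7 KO kidneys, the last from 1 count (log2 fold change 1.80, SE 1.76, adjusted p = 0.754).

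In the C57BL/6 experiment Fos was at 1.87, 1.40 and 3.22 CPM in controls and at 3.40, 0.0374 and 1.53 CPM in LIN28B Wt1 kidneys. The second of these LIN28B Wt1 kidneys had only 2 Fos counts. The fold change over the group was -0.38 on the log2 scale with an SE of 1.11 (adjusted p = 0.907), and the groups overlapped. Fosb had 24 counts in LIN28B control 3 and none in the other controls or in any LIN28B Wt1 kidney, where 0 counts allow a level of up to 0.0490 to 0.0561 CPM, and it did not pass the filter on low counts. Atf3 was at 2.32, 1.88 and 4.32 CPM in these controls and at 9.50, 2.43 and 3.56 CPM in LIN28B Wt1 kidneys, led by kidney 1 (log2 fold change 0.86, SE 0.60, adjusted p = 0.505).

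The 2 models were set against each other by testing whether the LIN28B effect and the let-7 effect differed, in 1 fit of all 12 kidneys over 16598 genes, of which 0.00602% were called. None of the 10 members was called, and the lowest unadjusted p was that of Ier3. Its log2 fold change was 0.83 (SE 0.30) higher in the LIN28B model than in the let-7 model, with an unadjusted p of 0.0137 and an adjusted p of 0.676. For Zfp36 the difference was -0.37 (SE 0.38), for Dusp1 -0.25 (SE 0.41), for Junb -0.12 (SE 0.47), for Egr1 0.24 (SE 0.66) and for Ier2 0.03 (SE 0.30), each smaller than its error. The same held for Fos (-0.63, SE 1.501) and Jun (-0.02, SE 0.20). Atf3, with a positive value in the LIN28B model and a negative one in the let-7 model, had a difference of 1.63 (SE 0.95, adjusted p = 0.861), larger than its error. Fosb had an adjusted p of 0.777 and no fold change is given, since all LIN28B Wt1 kidneys were at 0 counts. Values this small beside their errors do not show that the effects were alike.

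Because Zfp36, Dusp1, Egr1 and Junb had negative fold changes in both models and Ier2 a positive one, a single effect shared by the models was also tested. This choice was made after these values had been seen. The fit had a term for the experiment and a term common to both mutant groups, so that any difference between the models counted as spread. Of all genes 5.26% were called in that test and 0 members were. Dusp1 had a shared log2 fold change of -0.66 (SE 0.20, adjusted p = 0.0687), Zfp36 of -0.63 (SE 0.19, adjusted p = 0.0703), Ier2 of 0.44 (SE 0.15, adjusted p = 0.0920), Egr1 of -0.94 (SE 0.32, adjusted p = 0.102) and Junb of -0.62 (SE 0.23, adjusted p = 0.129). Without let-7 KO kidney 1 the members called were 4, among them Egr1 at -1.22 (adjusted p = 0.0289) and Zfp36 at -0.77 (adjusted p = 0.0195), and without LIN28B Wt1 kidney 3 they were 2. In these fits more of all genes were called as well, 8.36% without let-7 KO kidney 1 and 10.2% without LIN28B Wt1 kidney 3.

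**Figure D2:**
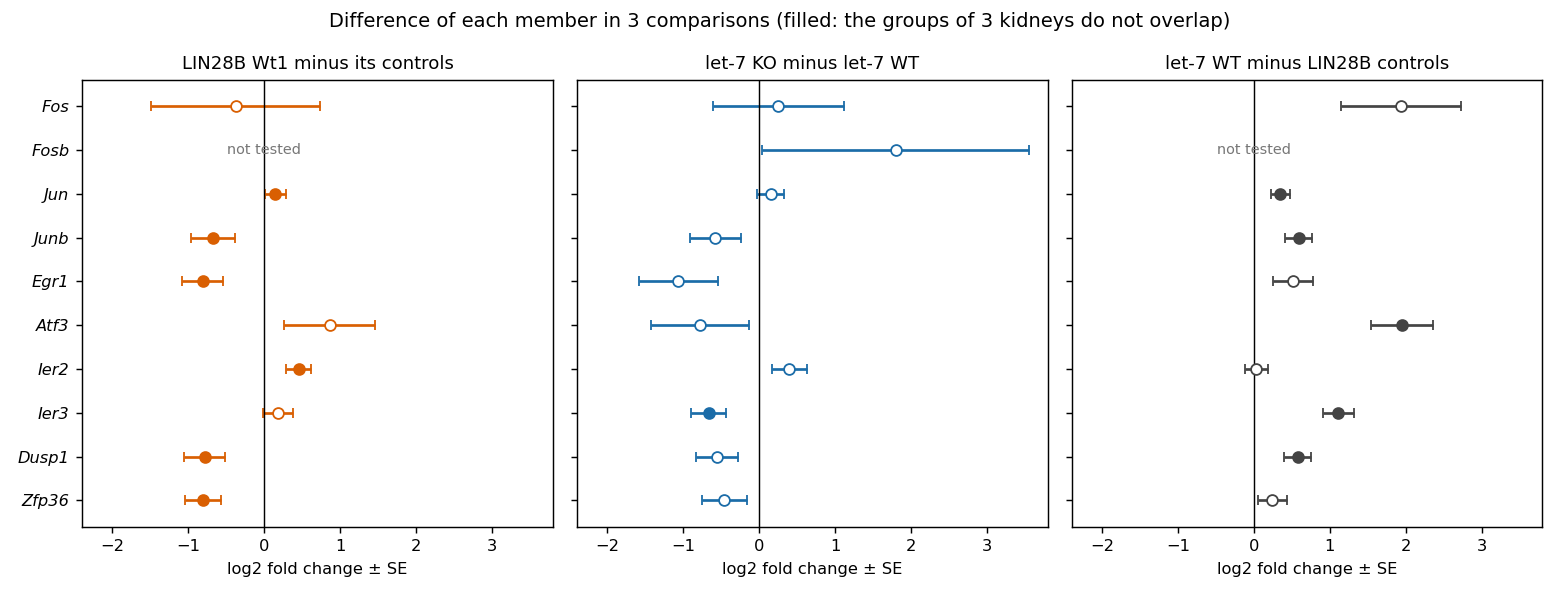
Log2 fold change ± SE (x axis) of each member (y axis) in LIN28B Wt1 against control kidneys, in let-7 KO against let-7 WT kidneys and between the 2 control groups, with filled points where the groups of 3 kidneys did not overlap. Filled points number 6 in the first panel, 1 in the second (Ier3) and 5 in the third, where all 9 tested members have positive values.

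The clearest difference of a member lay between the 2 control groups. Ier3 was at 20.9, 23.3 and 17.1 CPM in the C57BL/6 controls and at 45.0, 50.8 and 37.1 CPM in the let-7 WT kidneys of mixed background. Every let-7 WT kidney was above every C57BL/6 control, and Ier3 was 2.16-fold higher (log2 fold change 1.11, SE 0.20, adjusted p = 0.0378 in edgeR's quasi-likelihood test). It was the 1 member called of the 9 tested, where 1.19% of all 15850 genes were. The call was lost without any 1 of the 3 C57BL/6 controls or without let-7 WT kidney 1 (adjusted p from 0.147 to 0.172), with fold changes that stayed between 1.005 and 1.22 on the log2 scale over all 6 such fits.

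Atf3 was 3.86-fold higher in let-7 WT kidneys, at 8.25 to 13.1 CPM against 1.88 to 4.32 CPM, a log2 fold change of 1.95 (SE 0.41) with an adjusted p of 0.0587. The groups were well apart, and without let-7 WT kidney 3 Atf3 was called as well (adjusted p = 0.0463). Junb (0.59, SE 0.18), Dusp1 (0.58, SE 0.18) and Jun (0.35, SE 0.13) also did not overlap between the control groups, with adjusted p of 0.179, 0.201 and 0.287. In all, 5 of the 9 members did not overlap, all 5 higher in let-7 WT, against 20.0% of all genes, and 4 of the 9 had an unadjusted p below 0.01, against 4.79% of all genes. The fold changes of Fos (1.93, SE 0.79), Egr1 (0.52, SE 0.26) and Zfp36 (0.25, SE 0.19) were positive too, and Ier2 was level (0.03, SE 0.15).

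Ier3 averaged 20.4 ± 3.13 CPM (SD, n = 3) in LIN28B controls, 23.1 ± 1.55 CPM in LIN28B Wt1, 28.2 ± 4.86 CPM in let-7 KO and 44.3 ± 6.88 CPM in let-7 WT kidneys. The first 2 groups overlapped, and the highest LIN28B Wt1 kidney (24.7 CPM) lay next to the lowest let-7 KO kidney (24.9 CPM). The same let-7 WT kidneys thus enter both the let-7 comparison and that of the control groups, which are not independent of each other. Across all 4 groups, where 7.66% of the 16598 genes were called, Ier3 (adjusted p = 0.0124) and Dusp1 (adjusted p = 0.0470) were the 2 members of 10 that passed. With the litter as a block, only Ier3 remained past the threshold (Dusp1 adjusted p = 0.0807). Leaving out 1 kidney moved the count to between 0 and 5 members, and the 0 came without let-7 WT kidney 1 or without let-7 WT kidney 2.

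Kidneys of the same group differed from each other more than for most genes in Fos, Atf3 and Egr1, and less than for most genes in Jun and Ier3. The SD of log2(CPM + 0.5) within groups was 1.30 for Fos, at percentile 99.7 of the 16598 genes tested, 0.90 for Atf3 (percentile 94.8) and 0.75 for Egr1 (percentile 89.3). It was 0.11 for Jun (percentile 1.56) and 0.20 for Ier3 (percentile 15.3). The remaining members lay between, from 0.29 for Ier2 to 0.63 for Fosb. The median over the members was 0.45, against 0.36 over all genes. Low counts widen this measure, and among the 7 members with a mean log2 level of at least 3 the median was 0.34 against 0.29 for all 10898 such genes. With each kidney left out in turn, the median percentile of the members among all genes ranged from 48.6 to 69.7.

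The let-7 KO group held the widest contrast between kidneys. Its kidney 3 was the lowest of its group for 8 of the 10 members and the highest for Ier2, and its kidney 1 was the highest for 6 members. On the log2 scale kidney 3 deviated from its group mean by -1.48 for Fos, -1.44 for Atf3, -1.39 for Egr1, -0.87 for Junb, -0.62 for Dusp1 and -0.60 for Zfp36, and by 0.41 for Ier2. Kidney 1 deviated by 1.37 for Atf3, 1.31 for Fos and 1.14 for Egr1. Kidney 3 was also the one with the fewest counts and the largest share of them on 100 genes, and the part of either in its low members was not tested. It came from litter 2, the kidneys 1 and 2 from litter 1.

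In the other groups the members were less aligned. Averaged over the members after scaling each to the same spread, the deviations ran from -0.21 to 0.15 in LIN28B Wt1 kidneys, from -0.12 to 0.11 in their controls and from -0.23 to 0.31 in let-7 WT kidneys, against -1.44, 0.42 and 1.02 in let-7 KO kidneys. In LIN28B Wt1 kidney 1, Fos, Atf3, Jun and Ier2 were the highest of the group while Junb, Dusp1 and Ier3 were the lowest. Kidney 3 had the reverse for Junb, Dusp1, Jun and Ier2. LIN28B control 3 was highest of its group for 7 members but lowest for Ier3, Dusp1 and Zfp36.

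**Figure D3:**
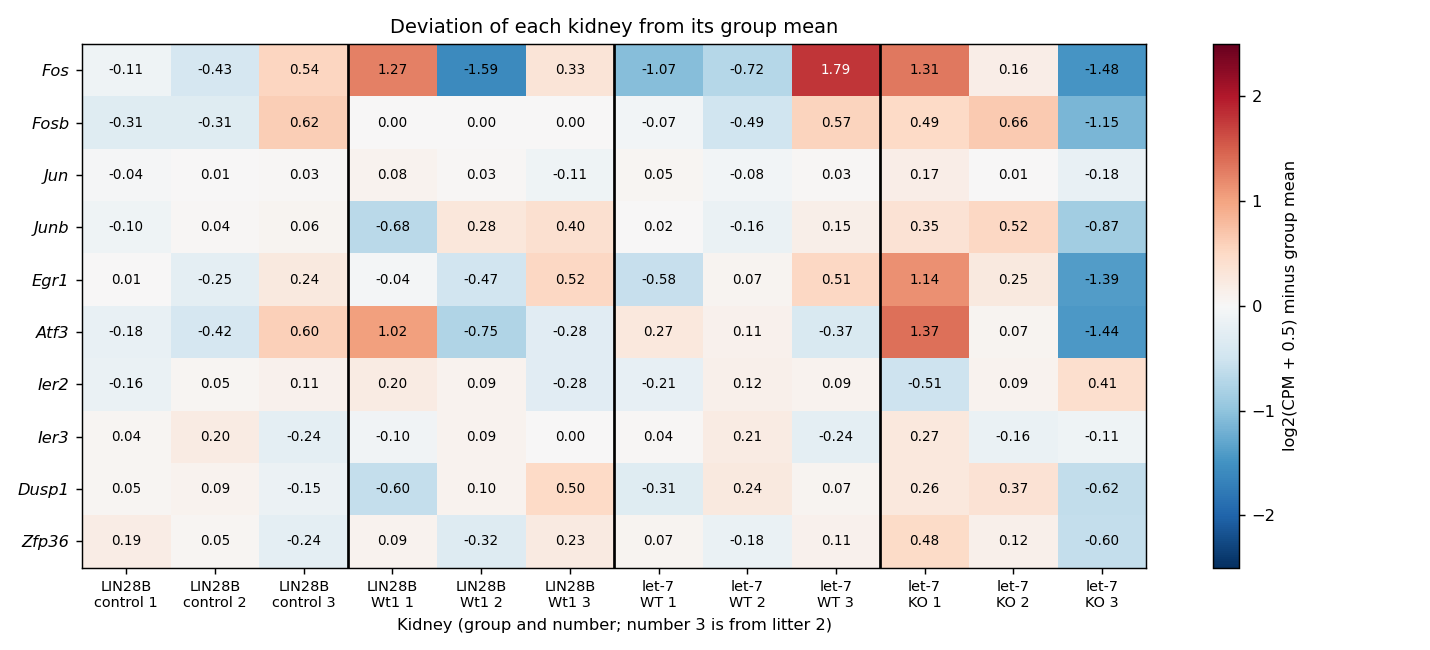
Deviation of log2(CPM + 0.5) of each kidney (x axis) from the mean of its group for each member (y axis), coloured from blue (below) to red (above), with the value printed in each cell. The column of let-7 KO kidney 3 is below its group mean for 9 of the members and above it for Ier2 (0.41), and the Fos row has the largest values, up to 1.79 in let-7 WT kidney 3.

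Over the 12 kidneys with group means removed, 34 of the 45 pairs of members had a positive Pearson correlation, 21 of them above 0.5, and the median was 0.37. The highest was that of Junb with Dusp1 (0.86), followed by Egr1 with Zfp36 (0.80) and Fos with Egr1 (0.79). Ier2 was negative with every member, down to -0.81 with Zfp36. These values describe 12 libraries in which let-7 KO kidney 3 carries much weight, and each kidney's members share its depth and scaling. The 10 other genes whose kidney-to-kidney pattern was most like the members' mean, of 10891 ranked, were Zfp51, Aagab, Mapkap1, Cdc16, 2310022A10Rik, Sept2, Oip5, Zfp946, Rgn and Pcid2, with correlations from 0.97 for Zfp51 to 0.93 for Pcid2 over the 12 kidneys. None of the 10 belonged to any of the lists of related genes used here.

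Of 41 other immediate early genes with a row, 38 were tested in LIN28B Wt1 kidneys, and 1 was called, where 1.23% of all genes were. Sgk1, a kinase that raises sodium uptake in the distal nephron, fell by 0.74 on the log2 scale (SE 0.15, adjusted p = 0.0497), from 205 ± 16.4 CPM (SD, n = 3) in controls to 122 ± 16.8 CPM. Its call was kept under 4 of 11 alternatives and was lost with the litter as a block, in the fit of all 12 kidneys and without any 1 of 5 kidneys, with adjusted p of up to 0.267 and negative values throughout. Of the list 16 had positive and 22 negative values, with a median of -0.08. Without overlap 5 were lower and 2 higher, where 23.8% of all genes did not overlap. In let-7 KO kidneys 0 of 39 were called (0.0194% of all genes) and 3 had an unadjusted p below 0.01 (2.73% of all genes). The median there was -0.28 (-0.02 over all genes). Without overlap 10 were lower and 2 higher, where 16.7% of all genes did not overlap. Between the control groups 2 of 39 were called, where 1.19% of all genes were, and both were higher in let-7 WT. These were Cyr61, which encodes a matrix protein downstream of mechanical and growth signals (2.14-fold, adjusted p = 0.03003), and Hbegf, which encodes a ligand of the epidermal growth factor receptor (1.98-fold, adjusted p = 0.0348), 2 genes named after their values had been seen. Cyr61 kept its call under 5 of 8 alternatives and Hbegf under 4, and both calls were lost without single kidneys.

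Other inhibitors of the pathway, 13 MAP kinase phosphatases and Sprouty family genes, had 0 calls in either model. Dusp4, a nuclear phosphatase like Dusp1, had the lowest p of them, at 10.7 to 15.8 CPM in let-7 WT and 1.86 to 4.55 CPM in let-7 KO kidneys (log2 fold change -2.17, SE 0.45, unadjusted p = 0.000598, adjusted p = 0.275). Spred2, an inhibitor of the Ras to MAP kinase step, had a log2 fold change of -1.19 (SE 0.40, adjusted p = 0.375) in the same comparison. In that list 11 of the 13 genes were negative in let-7 KO kidneys, with a median of -0.50, and 5 of 13 in LIN28B Wt1 kidneys, with a median of 0.09.

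Upstream of the members, 27 kinases, Ras genes and transcription factors were tested. Only Nras was called, in LIN28B Wt1 kidneys, where 1.23% of all genes were. It was at 128 to 137 CPM against 80.5 to 85.4 CPM in controls (log2 fold change 0.68, SE 0.13, adjusted p = 0.0399). This call was kept under 5 of 11 alternatives and was lost with the litter as a block and without any 1 control or LIN28B Wt1 kidney 1 or 2, at log2 fold changes between 0.67 and 0.70. Its level in let-7 KO kidneys was 91.3 to 105 CPM against 81.0 to 89.7 CPM (log2 fold change 0.18, SE 0.17, adjusted p = 0.736). The upstream medians were 0.03 and -0.07 in the 2 models. The other partners of AP-1 had 0 calls of 10 and of 11, with Mafk, a small Maf protein, at -0.63 (SE 0.32) and -0.81 (SE 0.25) and Nfe2l2, the factor of the oxidative stress response, at -0.32 (SE 0.16) and -0.24 (SE 0.17).

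The integrated stress response, which induces Atf3 through the translation of Atf4, had 0 of 12 genes called in either model. Its lowest p in LIN28B Wt1 kidneys were those of the serine synthesis genes Phgdh (0.49, SE 0.12, adjusted p = 0.0768) and Psat1 (0.61, SE 0.15, adjusted p = 0.0786). Between the control groups 4 of the 12 were called, all higher in let-7 WT, where 1.19% of all genes were called. Positive values were found for 11 of the 12, and 8 were higher without overlap, where 20.0% of all genes did not overlap. The 4 called were Trib3 (15.2-fold, adjusted p = 0.000716), Ddit3 (3.33-fold, adjusted p = 0.0106), Asns (2.48-fold, adjusted p = 0.0446) and Phgdh (1.52-fold, adjusted p = 0.0446). Trib3, a pseudokinase induced by Atf4 and Ddit3, was at 21.6 to 28.4 CPM in let-7 WT against 0.987 to 2.29 CPM in C57BL/6 controls. In let-7 KO kidneys Trib3 was at 0 to 12.9 CPM, with no overlap with let-7 WT (log2 fold change -2.57, SE 1.47, adjusted p = 0.555). Of these calls only that of Trib3 was kept under all 8 alternatives, against 4 for Ddit3, 3 for Phgdh and 1 for Asns, all with positive values throughout. Atf3, higher in the same kidneys, itself missed the threshold.

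Heat shock genes, which handling and heat also induce, had 0 of 12 calls in either model. In LIN28B Wt1 kidneys 7 had positive and 5 had negative values, with a median log2 fold change of 0.08 (-0.02 over all genes). Of the 12, 4 were higher without overlap and 0 lower, where 23.8% of all genes did not overlap. In let-7 KO kidneys 10 had positive and 2 had negative values, with a median of 0.24 (-0.02 over all genes). There 4 of the 12 were higher without overlap, where 16.7% of all genes did not overlap. In the shared effect, tested after values had been seen, 3 of 12 were called, all higher, where 5.26% of all genes were. The chaperones Hsp90aa1 (0.67, SE 0.18, adjusted p = 0.0966) and Hsp90ab1 (0.63, SE 0.15, adjusted p = 0.0737) were higher in every LIN28B Wt1 kidney than in any control, whereas the inducible Hspa1a (-0.36) and Hspa1b (-0.35) had negative values in groups that overlapped. In let-7 KO kidneys Hsp90aa1 and Hsp90ab1 had values of 0.61 (SE 0.18, adjusted p = 0.362) and 0.46 (SE 0.17, adjusted p = 0.392). Of the hypoxia genes Ndrg1 was the 1 of 10 called in LIN28B Wt1 kidneys, where 1.23% of all genes were (-1.19, SE 0.17, adjusted p = 0.0151, kept under 7 of 11 alternatives). Of the kidney injury genes Spp1, which encodes osteopontin of the tubule, was the 1 of 10 called there (-1.10, SE 0.17, adjusted p = 0.0184, kept under 7 of 11). Between the control groups 2 of 11 injury genes were called, where 1.19% of all genes were. These were Hmox1 (4.12-fold, adjusted p = 0.00130) and Havcr1 (19.3-fold, adjusted p = 0.0302), both higher in let-7 WT and both named after their values had been seen. Hmox1 kept its call under all 8 alternatives and Havcr1 under 6.

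**Figure D4:**
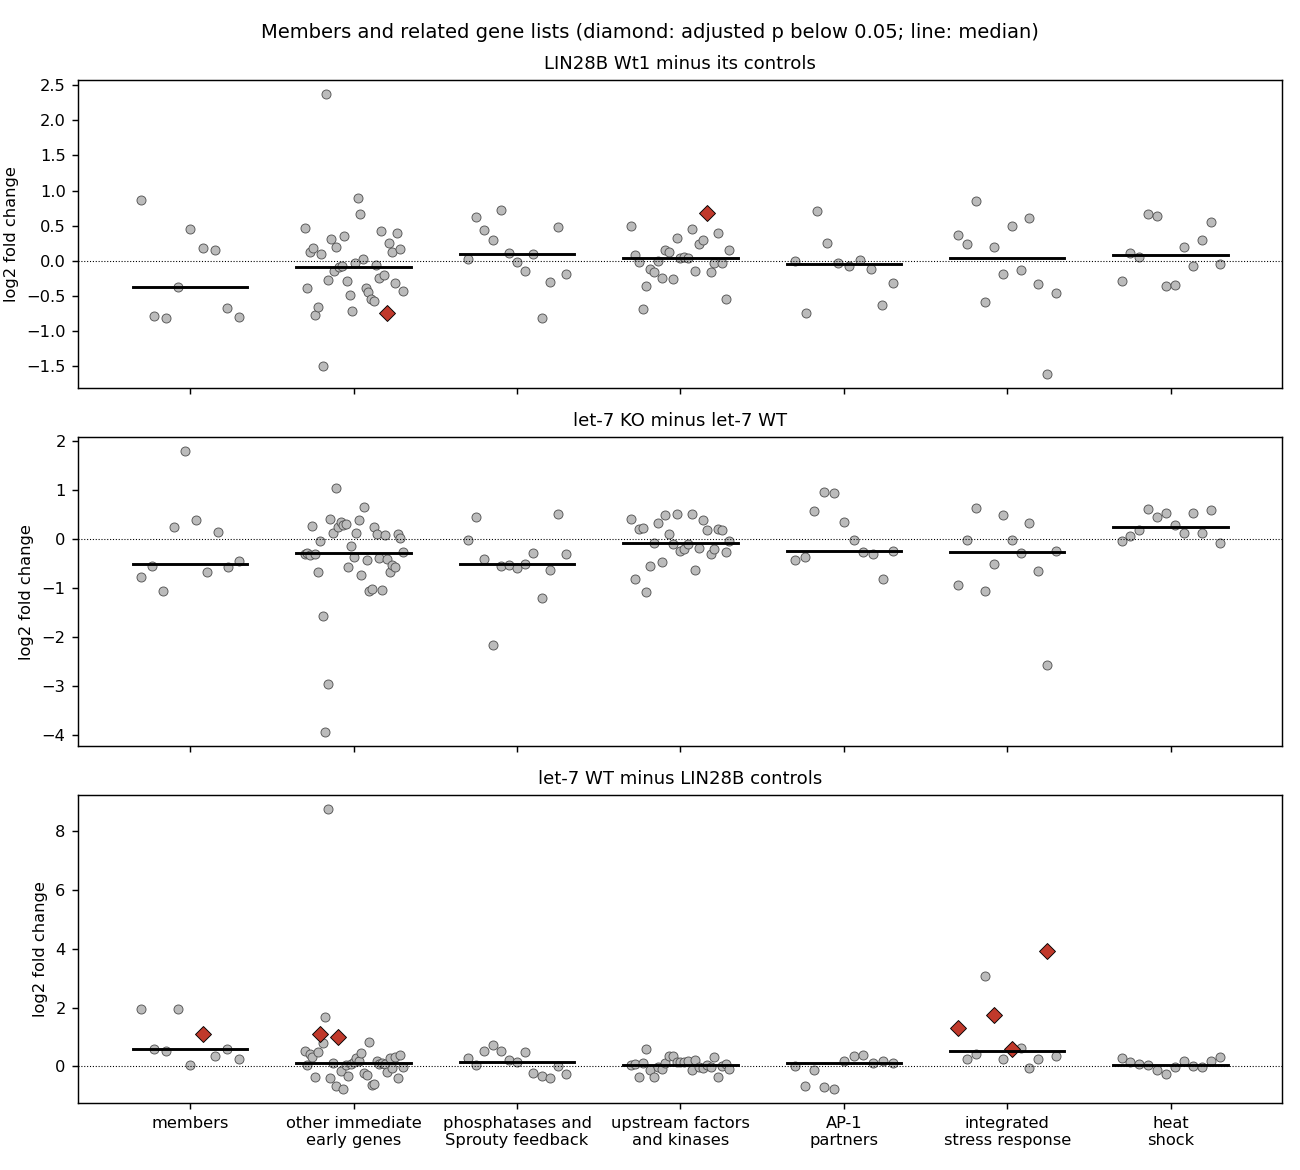
Log2 fold change (y axis, a separate scale in each panel) of every tested gene of the member list and of 6 related lists (x axis) in the 2 models and between the control groups, with diamonds for an adjusted p below 0.05 and a line at each median. In the upper panels the diamonds are Sgk1 and Nras in LIN28B Wt1 kidneys, and in the lowest panel they are Ier3, Cyr61, Hbegf and 4 integrated stress response genes.

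Markers of cell types moved with some of these differences. In LIN28B Wt1 kidneys, where 1.23% of all genes were called and 23.8% did not overlap, 4 of 5 cap mesenchyme markers were called higher, led by Six2 (3.35, SE 0.24, adjusted p = 0.000797). Of the 11 kidney markers 3 were called lower, Slc12a3, Slc34a1 and Umod of the differentiated tubule. The 6 endothelial markers summed to 521 to 569 CPM in LIN28B Wt1 kidneys and to 773 to 826 CPM in their controls. Of the 6, 5 did not overlap, against 23.8% of all genes, although none was called (Plvap -0.54, adjusted p = 0.0630, and Pecam1 -0.68, adjusted p = 0.0752). The 9 macrophage and neutrophil markers summed to 144 to 209 CPM against 180 to 215 CPM, and none was called. Csf1r, the receptor of macrophages for their growth factor, was lower in every LIN28B Wt1 kidney than in any control (-0.9997, SE 0.25, adjusted p = 0.0856), as was Ptprc (-0.65, SE 0.27, adjusted p = 0.248), and the neutrophil gene S100a8 was higher in every one (1.20, SE 0.45, adjusted p = 0.198). The 8 smooth muscle and stroma markers summed to 2546 to 3050 CPM against 3177 to 3511 CPM, and Des was called higher (1.53, adjusted p = 0.00726). Of the other 7, Pdgfrb (-0.81, adjusted p = 0.05003), Pdgfra (-0.69, adjusted p = 0.0799), Myh11 (-0.92, adjusted p = 0.101) and Acta2 (-0.22, adjusted p = 0.417) were lower without overlap and were not called. Red cell markers summed to 42.8 to 81.1 CPM against 62.6 to 87.2 CPM, and adrenal and fat markers to 4.10 to 12.9 CPM against 8.47 to 53.8 CPM. The part of these cell types in the lower Zfp36, Dusp1, Egr1 and Junb was not tested.

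In let-7 KO kidneys no marker was called, and 16.7% of all genes did not overlap with let-7 WT. The 5 cap mesenchyme markers summed to 71.7 to 107.5 CPM against 46.3 to 49.1 CPM in let-7 WT, and all 5 had positive values (median log2 fold change 0.94), with no overlap for Cited1 alone (1.13, SE 0.40, adjusted p = 0.379). The 11 kidney markers summed to 5220 to 5738 CPM against 5083 to 6505 CPM, and 8 had negative values, with Slc12a3, Slc34a1 and Umod lower without overlap. Endothelial markers summed to 625 to 867 CPM against 683 to 848 CPM in let-7 WT, macrophage and neutrophil markers to 143 to 150 CPM against 148 to 264 CPM, and smooth muscle and stroma markers to 2900 to 4214 CPM against 2700 to 3950 CPM. Red cell markers summed to 79.3 to 111 CPM against 86.7 to 110 CPM, with 5 globin genes, Hba-a1, Hba-a2, Hbb-bs, Hbb-bt and Hbb-b2, at 0 in all 12 kidneys. Adrenal and fat markers summed to 1.92 to 9.30 CPM against 2.88 to 3.89 CPM. Between the control groups, kidney markers summed to 5083 to 6505 CPM in let-7 WT and to 4378 to 4664 CPM in C57BL/6 kidneys, and adrenal and fat markers were at 8.47 to 53.8 CPM in C57BL/6 controls and at 2.88 to 3.89 CPM in let-7 WT kidneys. Of these the brown fat gene Ucp1 (2.29 to 16.9 CPM against at most 0.0367 CPM) and Adipoq (2.59 to 25.6 CPM against at most 0.119 CPM) were called lower in let-7 WT. Ier3 and Atf3 were higher, and the summed adrenal and fat markers lower, in let-7 WT kidneys than in C57BL/6 controls. In LIN28B Wt1 (4.10 to 12.9 CPM) and let-7 KO kidneys (1.92 to 9.30 CPM) Ier3 averaged 23.1 and 28.2 CPM, against 44.3 CPM in let-7 WT. The part of fat in the difference between the control groups was not tested.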

How the data were processed

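RNA of each of 12 whole kidneys was reverse transcribed and amplified with a kit for low input that does not keep the strand, and was sequenced on a HiSeq machine. Per the submitters' processing notes, cutadapt, TopHat2 2.0.9, Bowtie2, SAMtools 0.1.19 and HTSeq were used with the mm10 build. The annotation and the counting options are not given in the sources used here. The authors deposited raw counts of reads per gene symbol, 1 table per kidney, without normalization. Groups and litters were taken from the sample labels. The members and the gene lists were chosen with earlier results of these data known.

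Counts were tested with the quasi-likelihood test of edgeR 4.0.16 (R 4.3.3) after TMM scaling and filterByExpr (minimum count 10, minimum total count 15), with Benjamini-Hochberg adjustment over all genes tested and a call at an adjusted p below 0.05. Each model was fitted alone, the control groups were fitted together, and the difference between the models, the difference among the 4 groups and the shared effect were fitted on all 12 kidneys. The SE was taken from the log2 fold change and F, as their ratio with F under a root. Levels are CPM scaled by TMM over the 12 kidneys, and the spread within groups used log2(CPM + 0.5). The scripts were tested on simulated counts. Genes named are all members, for each other list those called in either model (at most 4) or else the 2 with the lowest p, and the 10 genes most like the members' mean. Calls between the control groups were named after they were seen.

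The litter was not in the fits and was tried as a replicate block. The labels give shared litter numbers, but kidneys of the same litter did not depart from their group means together (mean correlation -0.14 in the LIN28B experiment and -0.03 in the let-7 experiment, against 0.17 and 0.04 in different litters). Kidneys 1 and 2 of a group share a litter, and p-values treat all 3 as independent. No 2 kidneys of a group were alike within sampling noise (chi-square per gene of 31.7 or more). Alternatives were DESeq2 1.42.0, upper-quartile scaling, no filter, 1 fit of all 12 kidneys, the litter block, the unadjusted threshold of 0.01 and each kidney left out in turn. Promoter windows are those of RefSeq on GRCm38.p6, and gene positions are those of GENCODE M21.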

Additional observations from a re-analysis of the deposited data

How the results depend on the processing

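Of the members' values under the alternatives, 600 kept their direction and their side of the threshold, 17 newly passed it, 16 no longer passed it and 35 changed sign. The sign changes were all in values within their SE in the first fit. The cause of these shifts was not tested beyond the kidney or setting named.

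With the litter as a replicate block, the genes called were 95 for the LIN28B effect (194 without it), 0 for the let-7 effect (3), 0 for the difference between the models (1), 579 for the difference among the 4 groups (1272) and 378 for the shared effect (873). The block took Dusp1 below the threshold in the difference among the 4 groups, which left 1 member called, and turned the shared effect of Fos to 0.179 and of Atf3 to -0.097. It changed no other call of a member. DESeq2 called 1375 and 178 genes in the LIN28B and let-7 effects and 1 and 0 members. At an unadjusted p below 0.01 the genes were 1158 and 423 and the members 1 and 0. The fit of all 12 kidneys gave 5 genes for the let-7 effect, and no filter gave 3 for the difference between the models.

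Leaving out each kidney in turn gave 0 to 4 members and 21 to 2074 genes for the LIN28B effect, 0 members and 0 to 5 genes for the let-7 effect, and 0 members and 1 to 6 genes for the difference between the models. It gave 0 to 2 members and 36 to 308 genes between the control groups, 0 to 5 members and 691 to 2139 genes among the 4 groups, and 0 to 4 members and 176 to 1731 genes for the shared effect. Fos ranged from -1.44 to 0.214 in the LIN28B effect, from -0.67 to 1.897 in the let-7 effect, from -2.287 to 0.26 in their difference and from -0.498 to 0.579 in the shared effect. In the difference between the models Jun ranged from -0.101 to 0.066, Junb from -0.432 to 0.156, Egr1 from -0.189 to 0.928 and Ier2 from -0.183 to 0.266. Ier2 ranged from -0.045 to 0.129 between the control groups, and Atf3 from -0.392 to 0.355 in the shared effect.

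Depth limits Fos and Fosb most, since 1 kidney had 2 Fos counts and 7 of the 12 kidneys had fewer than 3 Fosb counts. With 3 kidneys a group from 2 litters, litter and the spread between kidneys are estimated from few samples.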
